A study of Mus musculus with 12 samples.

Results

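Insulin signalling and the fasting response of the liver were followed through 8 genes. They were the insulin receptor Insr, the receptor substrates Irs1 and Irs2, and the PI3K subunit Pik3r1. The others were the transcription factors Foxo1 and Foxo3, the secreted binding protein Igfbp1 and the kinase Sik1. The genes were chosen by symbol, with earlier results of these data known. All 8 were among the 38926 gene symbols counted and among the 14488 that passed the filter on low counts. Poly(A) RNA of whole liver was sequenced from 12 male mice of 12 weeks on a mixed 129Ola/C57BL6 background, with 1 liver per library and 3 mice in each of 4 groups. The groups were wild-type at ZT8, Rev-erbα-/- at ZT8, wild-type at ZT20 and Rev-erbα-/- at ZT20, where ZT is the time since lights on, so that ZT8 fell in the light phase and ZT20 in the dark phase. The knockout animals lack the nuclear receptor REV-ERBα, the product of Nr1d1, in every tissue and not only in hepatocytes. The mice had free access to food, and the labels do not record when each animal last ate. The comparisons ask how the transcripts differ between the genotypes at each time and between the times in each genotype.

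Insulin binds its receptor on the hepatocyte, and the receptor phosphorylates the IRS proteins, which recruit PI3K through its regulatory subunit and thereby activate AKT. AKT phosphorylates the FOXO factors and keeps them out of the nucleus, so that in the fasted liver FOXO returns to the nucleus and induces genes such as Igfbp1 and Irs2. Glucagon acts in parallel through cAMP, CREB and its CRTC coactivators, and induces Sik1, a kinase that in turn restrains the CRTC proteins. Laboratory mice eat mostly in the dark phase, and REV-ERBα, a transcriptional repressor of the circadian clock, is most abundant in liver during the light phase.

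The libraries held between 17641809 and 26060192 reads counted on genes, so that 3 counts correspond to between 0.117 and 0.167 CPM (read counts scaled to the size of the library). In wild-type livers at ZT8, the serum amyloid transcript Saa1, a marker of the acute phase response, stood at 60.8 CPM in replicate 1 but at 4970 and 6490 CPM in replicates 2 and 3, whereas the other 9 libraries ranged from 21.2 to 96.8 CPM. The results that use the wild-type livers at ZT8 were therefore also computed with replicate 1 as the only wild-type liver at ZT8, and many of those values are given beside the main ones. This is an alternative that was chosen after seeing the data, and in it the lone sample is assumed to vary like the other groups. Alignments to more than 1 place amounted to between 1.76 and 3.28 per counted read at ZT8 and to between 1.24 and 1.67 at ZT20, and their part in the differences between the times was not tested. Nr1d1 itself was counted at 129, 96.2 and 75.3 CPM in the wild-type and at 63.0, 71.9 and 80.6 CPM in the Rev-erbα-/- livers at ZT8, groups that overlap (edgeR, log2 difference -0.48, adjusted p = 0.14), so the gene count does not check the genotype labels. The exons that the knockout allele lacks are not given in the sources used here. Arntl, a clock gene known to be repressed by REV-ERBα, stood at 0.80, 0.45 and 0.71 CPM in the wild-type and at 24.3, 25.7 and 22.7 CPM in the Rev-erbα-/- livers at ZT8. Summed hepatocyte markers ranged from 68200 to 90300 CPM in wild-type and from 75600 to 103000 CPM in Rev-erbα-/- livers at ZT8. At ZT20 they ranged from 108000 to 119000 CPM in wild-type and from 99000 to 107000 CPM in Rev-erbα-/- livers. Of the 9 tested, 1 (Hnf4a) was called higher in Rev-erbα-/- at ZT8 (edgeR). From ZT8 to ZT20, 4 were higher and 1 lower in wild-type, and 1 higher and 2 lower in Rev-erbα-/-. The 4 adipocyte markers summed to at most 0.178 CPM, with Lep at 0 in all 12 libraries. The 5 neutrophil markers summed to between 1.76 and 10.0 CPM, with Ly6g at 0 throughout and 0 of 3 tested called in any comparison. Of the 6 pancreas markers Ins1, Prss1 and Cpa1 were at 0 throughout, and the list summed to between 25.9 and 28.6 CPM in wild-type and 43.7 and 59.7 CPM in Rev-erbα-/- livers at ZT8, and to between 18 and 30.2 and between 29.4 and 40.4 CPM at ZT20. Its 1 tested gene, the elastase Cela1, was called higher in Rev-erbα-/- at ZT8 and lower at ZT20 than at ZT8 in Rev-erbα-/- (edgeR). The Kupffer cell and macrophage markers summed to between 405 and 628 CPM in wild-type livers at ZT8, against 366 to 437 in Rev-erbα-/- at ZT8, 353 to 435 in wild-type at ZT20 and 399 to 487 CPM in Rev-erbα-/- at ZT20. Of the 9 tested, 0 were called between the genotypes at either time, 4 (C1qb, Cd5l, Cd68 and Marco) were lower at ZT20 than at ZT8 in wild-type, and the genotype effect on 2 (Cd68 and Marco) differed between the times. The highest sum thus came from wild-type livers at ZT8, the group in which the means of Foxo3 and Insr were highest, and the part of these markers in the results was not tested. In such whole-tissue RNA, fewer cells of a type and less RNA per cell cannot be told apart.

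**Figure D1:**
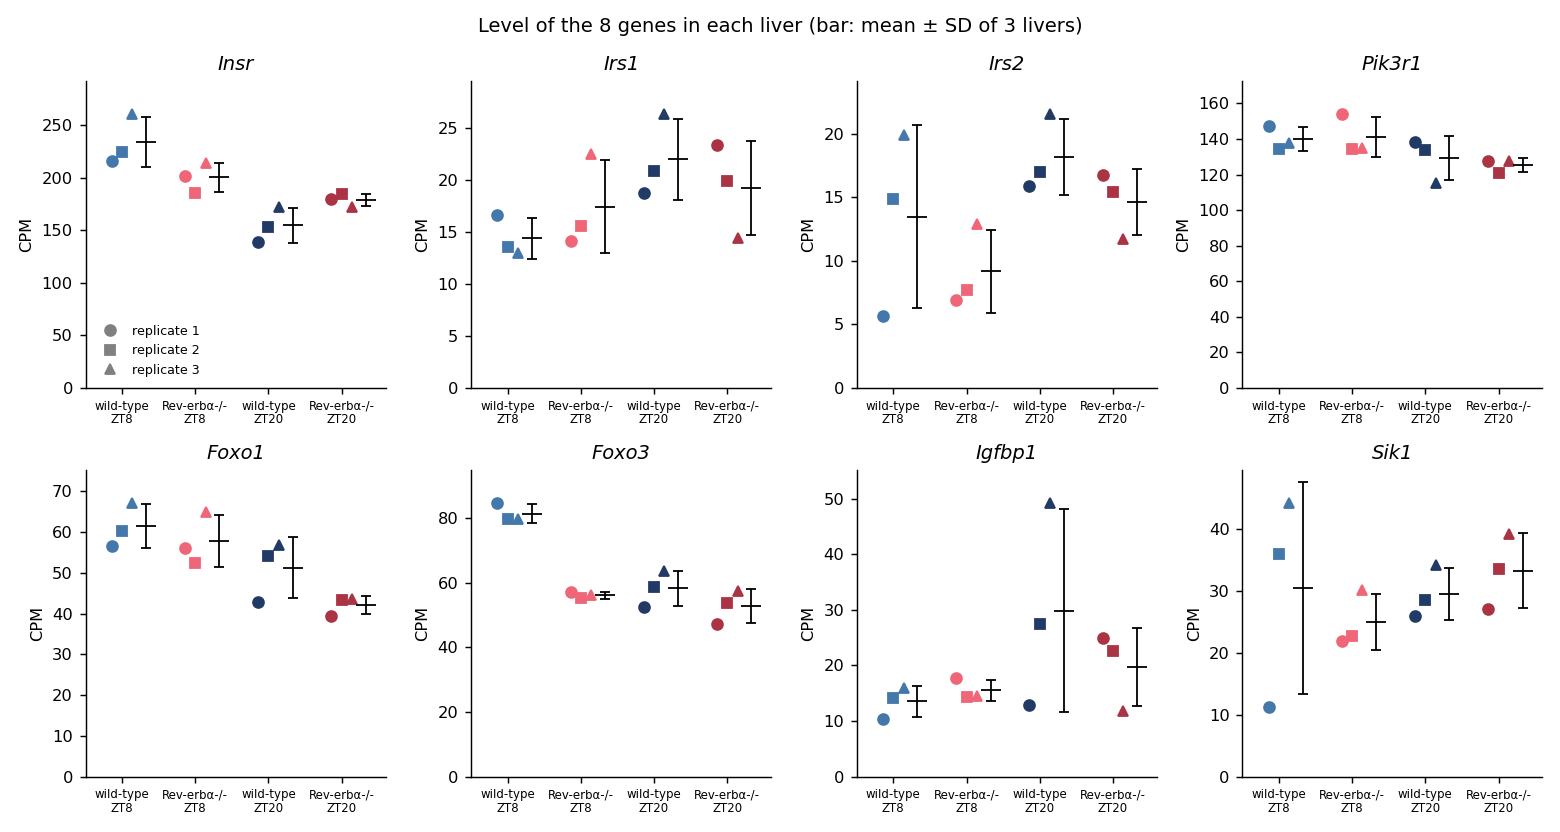
Level of the 8 genes in each liver, in CPM on axes that start at 0, for the 4 groups of 3 mice; circles, squares and triangles are replicates 1, 2 and 3, and black bars give the mean ± SD. Foxo3 in wild-type livers at ZT8 lies between 79.7 and 84.9 CPM, above all 9 other libraries, while Irs2, Igfbp1 and Sik1 spread widely within groups.

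Per kilobase of exon, Insr was the most abundant of the 8 in every group except wild-type at ZT20. Its level was 17.0 ± 1.72 RPKM in wild-type and 14.6 ± 1.02 in Rev-erbα-/- livers at ZT8, and 11.3 ± 1.24 and 13.0 ± 0.439 at ZT20 (mean ± SD, n = 3 throughout). At ZT20 in wild-type the means of Igfbp1 (19.6 ± 12.0 RPKM) and Pik3r1 (12.8 ± 1.23 RPKM) were above that of Insr, for Igfbp1 by less than its SD. The lowest pair were Irs2, with group means from 1.49 to 2.95 RPKM, and Irs1, with 2.28 to 3.48 RPKM. The other genes had group means of 12.4 to 14.0 (Pik3r1), 6.98 to 10.8 (Foxo3), 8.86 to 19.6 (Igfbp1), 5.27 to 7.68 (Foxo1) and 4.86 to 6.49 RPKM (Sik1).

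Of the 8 genes, Foxo3 differed between the genotypes, and it did so at ZT8. Its mean there was 56.2 CPM in the knockout against 81.5 CPM in the wild-type livers, which is 0.69 times that level, where the means at ZT20 were 52.8 and 58.3 CPM. From ZT8 to ZT20, Insr fell by 33.9% and Foxo3 fell by 28.4% in wild-type livers, and Foxo1 fell by 27.3% in Rev-erbα-/- livers. The remaining genes, Irs1, Irs2, Pik3r1, Igfbp1 and Sik1, passed in no comparison of the main edgeR fit.

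**Figure D2:**
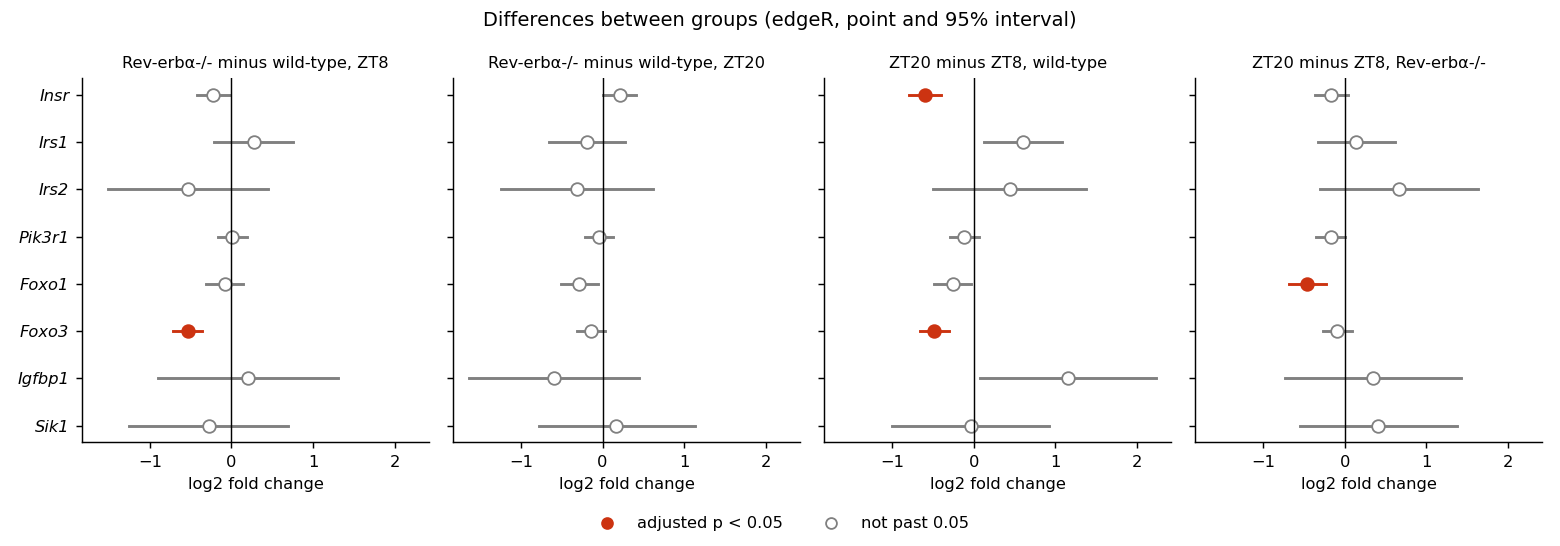
Differences between groups for the 8 genes as log2 fold changes with 95% intervals from edgeR, in 1 panel for each of 4 comparisons; filled red points passed an adjusted p of 0.05. Foxo3 is filled at ZT8 (-0.54), Insr (-0.60) and Foxo3 (-0.48) in wild-type over time, and Foxo1 (-0.46) in Rev-erbα-/- over time.

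The insulin receptor gene Insr (ENSMUSG00000005534.10, mm10 chr8:3122061-3279617, minus strand) encodes the tyrosine kinase that starts the pathway. Its level was 216.5, 224.6 and 260.9 CPM in wild-type livers at ZT8, 202.0, 185.8 and 213.7 CPM in Rev-erbα-/- livers at ZT8, 138.5, 153.1 and 172.5 CPM in wild-type livers at ZT20, and 179.6, 184.7 and 172.7 CPM in Rev-erbα-/- livers at ZT20. In wild-type every liver at ZT8 lay above every liver at ZT20, and the 2 Rev-erbα-/- groups lay between them, nearer to each other. The fall from ZT8 to ZT20 in wild-type was -0.60 ± 0.09 (log2, SE; edgeR, adjusted p = 0.00026), and with replicate 1 as the only wild-type liver at ZT8 it was -0.49 (adjusted p = 0.015). In Rev-erbα-/- the same difference was -0.16 ± 0.09 (edgeR, adjusted p = 0.26), with an interval from -0.36 to 0.037. The genotypes did not overlap at either time, and lay in opposite order: Rev-erbα-/- was lower at ZT8 (log2 difference -0.22; edgeR, unadjusted p = 0.032, adjusted p = 0.165; -0.12 and adjusted p = 0.77 with replicate 1 as the only wild-type liver at ZT8) and higher at ZT20 (0.21; unadjusted p = 0.042, adjusted p = 0.31). The difference between these effects was -0.43 ± 0.13 and did not pass in edgeR (adjusted p = 0.071), but did in DESeq2 (adjusted p = 0.040). It passed in edgeR without a filter on low counts, without wild-type ZT8 replicate 1 (-0.49) and without wild-type ZT20 replicate 3 (-0.53), and with replicate 1 as the only wild-type liver at ZT8 it was -0.33 (adjusted p = 0.33).

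The receptor substrates differ in their place in the fasting cycle: IRS2 is the one that fasting induces in liver, while IRS1 varies less. Irs1 (ENSMUSG00000055980.2, mm10 chr1:82233101-82291416, minus strand) stood at 16.7, 13.6 and 13.0 CPM in wild-type and at 14.1, 15.6 and 22.5 CPM in Rev-erbα-/- livers at ZT8, and at 18.8, 20.8 and 26.3 CPM in wild-type and 23.4, 19.9 and 14.5 CPM in Rev-erbα-/- livers at ZT20. The wild-type livers at ZT20 lay above those at ZT8 without overlap, and the other pairs of groups overlapped. This difference in wild-type, 0.61 ± 0.22, did not pass in edgeR (log2, SE; adjusted p = 0.060) and passed in DESeq2 (adjusted p = 0.017). It passed in edgeR in a fit of only the 6 samples compared, and without Rev-erbα-/- ZT8 replicate 3 (0.61), Rev-erbα-/- ZT20 replicate 1 (0.61) or Rev-erbα-/- ZT20 replicate 3 (0.61), and with replicate 1 as the only wild-type liver at ZT8 it was 0.39 (adjusted p = 0.54). Irs1 shares 2822 exonic bases with Gm9747 on the opposite strand, and since the authors counted without regard to strand, reads there were assigned to neither gene.

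Irs2 (ENSMUSG00000038894.7, mm10 chr8:10984681-11008458, minus strand) stood at 5.65, 14.9 and 19.9 CPM in wild-type and at 6.91, 7.72 and 12.9 CPM in Rev-erbα-/- livers at ZT8. At ZT20 it stood at 15.9, 17.0 and 21.6 CPM in wild-type and at 16.8, 15.4 and 11.7 CPM in Rev-erbα-/- livers. The groups of each of the 4 comparisons overlapped, and the wild-type livers at ZT8 spanned a 3.52-fold range. No comparison passed (edgeR, adjusted p from 0.335 to 0.876 over the 5 comparisons), and the intervals were wide: from -1.51 to 0.44 for the genotype difference at ZT8 and from -1.24 to 0.62 at ZT20. With wild-type ZT8 replicate 1 as the only wild-type liver at ZT8, the genotype difference at ZT8 changed sign to 0.70 (adjusted p = 0.48) and the rise from ZT8 to ZT20 in wild-type became 1.68 (adjusted p = 0.020). Irs2 shares 162 exonic bases with 9530052E02Rik on the opposite strand.

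Pik3r1 (ENSMUSG00000041417.15, mm10 chr13:101680563-101768217, minus strand) encodes the p85α family of regulatory subunits, which tether PI3K to the IRS proteins. It stood at 147.4, 134.5 and 137.6 CPM in wild-type and 154.1, 134.2 and 135.0 CPM in Rev-erbα-/- livers at ZT8, and at 138.5, 133.8 and 115.1 CPM in wild-type and 127.6, 120.8 and 127.6 CPM in Rev-erbα-/- livers at ZT20. It had the narrowest range of the 8 genes, 1.34-fold between the lowest and the highest library. The genotype differences were 0.013 at ZT8, with an interval from -0.16 to 0.19, and -0.043 at ZT20, with an interval from -0.22 to 0.13 (log2; edgeR, adjusted p = 0.95 and 0.88). In Rev-erbα-/- the livers at ZT20 lay below those at ZT8 without overlap, by -0.17 ± 0.08, but this did not pass (edgeR, adjusted p = 0.18).

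Foxo1 (ENSMUSG00000044167.6, mm10 chr3:52268336-52353221, plus strand) encodes the main FOXO factor of gluconeogenesis. Its level was 56.6, 60.3 and 67.3 CPM in wild-type and 56.1, 52.5 and 65.0 CPM in Rev-erbα-/- livers at ZT8, and 42.8, 54.2 and 56.9 CPM in wild-type and 39.5, 43.3 and 43.5 CPM in Rev-erbα-/- livers at ZT20. All 3 Rev-erbα-/- livers at ZT20 lay below all 3 at ZT8, while the wild-type groups overlapped by 1 liver. The fall from ZT8 to ZT20 was -0.46 ± 0.11 in Rev-erbα-/- (edgeR, adjusted p = 0.0087) and -0.26 ± 0.11 in wild-type (adjusted p = 0.0865). The difference between these falls was 0.20 ± 0.15 (adjusted p = 0.51), so the data do not show that time acted differently in the genotypes. The fall in wild-type passed without wild-type ZT20 replicate 3 (-0.35), and was -0.15 with replicate 1 as the only wild-type liver at ZT8 (adjusted p = 0.61). Between the genotypes at ZT20 Foxo1 was lower in Rev-erbα-/- (log2 difference -0.29), which passed at an unadjusted p of 0.018 but not when adjusted (edgeR, adjusted p = 0.20). Foxo1 shares 674 exonic bases with Gm20402 on the opposite strand.

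Foxo3 (ENSMUSG00000048756.11, mm10 chr10:42181841-42276755, minus strand) encodes another FOXO factor, which drives autophagy and cell-cycle arrest genes. It stood at 84.9, 79.9 and 79.7 CPM in wild-type livers at ZT8, and at 57.3, 55.2 and 56.1 CPM in Rev-erbα-/- livers at ZT8. At ZT20 it stood at 52.6, 58.7 and 63.7 CPM in wild-type and at 47.2, 53.9 and 57.4 CPM in Rev-erbα-/- livers. The wild-type livers at ZT8 were thus the highest of the 12 libraries, and the other 3 groups overlapped one another. The genotype difference at ZT8 was -0.54 ± 0.08 with an interval from -0.71 to -0.36 (log2, SE; edgeR, adjusted p = 0.00092; DESeq2, adjusted p = 1.1e-06), and the CV within the 2 groups was 3.63% and 1.88%. It passed without each of the 12 libraries in turn (-0.55 to -0.51, edgeR adjusted p at most 0.0079), and with replicate 1 as the only wild-type liver at ZT8 it was -0.60 (adjusted p = 0.014). At ZT20 the difference was -0.14 ± 0.08 (edgeR, adjusted p = 0.47). In wild-type the difference from ZT8 to ZT20 was -0.48 ± 0.08 (edgeR, adjusted p = 0.00049; -0.55 and adjusted p = 0.0070 with replicate 1 as the only wild-type liver at ZT8), and in Rev-erbα-/- the difference was -0.090 ± 0.083 (adjusted p = 0.51). The difference between the genotype effects, -0.39 ± 0.12, did not pass (edgeR, adjusted p = 0.063; DESeq2, adjusted p = 0.052). It passed with upper-quartile scaling (adjusted p = 0.046), without wild-type ZT20 replicate 3 (-0.47) and without Rev-erbα-/- ZT20 replicate 1 (-0.47), and with replicate 1 as the only wild-type liver at ZT8 it was -0.46 (adjusted p = 0.125). Foxo4, a relative of both that was added after its values were seen, ranged from 28.6 to 37.5 CPM over the 12 libraries and passed in no comparison (edgeR, adjusted p from 0.49 to 0.71).

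Igfbp1 (ENSMUSG00000020429.7, mm10 chr11:7197782-7202546, plus strand) encodes a secreted protein that binds IGF1, and its transcript is a textbook target of FOXO that insulin shuts off. It stood at 10.4, 14.2 and 16.0 CPM in wild-type and 17.7, 14.4 and 14.5 CPM in Rev-erbα-/- livers at ZT8, and at 12.9, 27.4 and 49.3 CPM in wild-type and 24.9, 22.6 and 11.7 CPM in Rev-erbα-/- livers at ZT20. The wild-type livers at ZT20 spanned a 3.81-fold range, so that replicate 1 lay within the ZT8 range and replicate 3 above every other library. The difference from ZT8 to ZT20 in wild-type, 1.15 ± 0.47 with an interval from 0.077 to 2.23, did not pass (log2, SE; edgeR, adjusted p = 0.11; DESeq2, adjusted p = 0.055). Without wild-type ZT20 replicate 1 it was 1.51 (edgeR, adjusted p = 0.021), without replicate 3 of that group it was 0.57, and with replicate 1 as the only wild-type liver at ZT8 it was 1.52 (adjusted p = 0.31). The genotype differences were 0.21, with an interval from -0.90 to 1.31, at ZT8 and -0.60, with an interval from -1.64 to 0.45, at ZT20 (edgeR, adjusted p = 0.85 and 0.64). At ZT8 it ranged from 0.039 without wild-type ZT8 replicate 1 to 0.35 without replicate 3 of that group, and was 0.58 with replicate 1 as the only wild-type liver at ZT8 (adjusted p = 0.83). At ZT20 it ranged from -0.96 without wild-type ZT20 replicate 1 to -0.024 without replicate 3 of that group, so its size rested on single livers.

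Sik1 (ENSMUSG00000024042.7, mm10 chr17:31844250-31855804, minus strand) encodes the salt-inducible kinase that cAMP induces in hepatocytes. It stood at 11.3, 36.0 and 44.3 CPM in wild-type and 21.9, 22.8 and 30.2 CPM in Rev-erbα-/- livers at ZT8, and at 25.96, 28.5 and 34.2 CPM in wild-type and 27.1, 33.6 and 39.2 CPM in Rev-erbα-/- livers at ZT20. The lowest and the highest of the 12 libraries both came from the wild-type livers at ZT8, and every pair of groups overlapped. The genotype difference at ZT8 was -0.28 ± 0.43 with an interval from -1.25 to 0.69 (log2, SE; edgeR, adjusted p = 0.75). It rested on single livers: without wild-type ZT8 replicate 1 it was -0.69 (adjusted p = 0.036), without replicate 3 it was 0.092, and with replicate 1 as the only wild-type liver at ZT8 it was 1.14 (adjusted p = 0.052). In the last setting the difference from ZT8 to ZT20 in wild-type was 1.38 (adjusted p = 0.0061), against -0.038 in all 12 libraries (adjusted p = 0.96). Sik2 and Sik3, the other kinases of this family, were added after their values were seen and did not pass between the genotypes at either time (edgeR, adjusted p from 0.157 to 0.805).

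**Figure D3:**
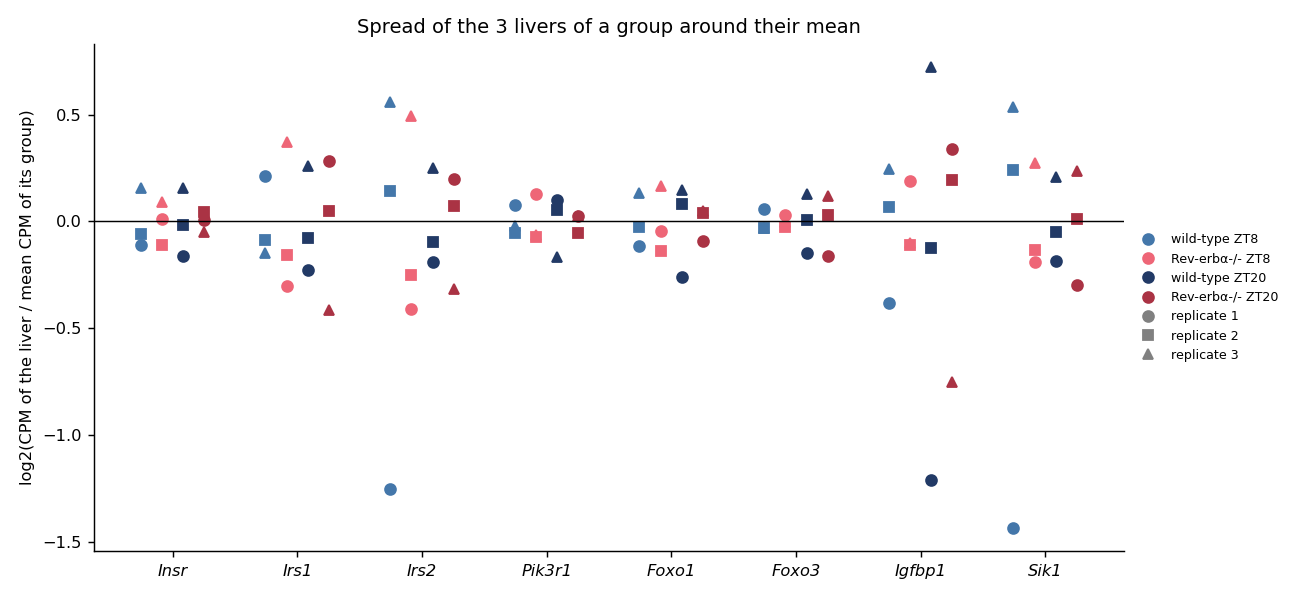
Spread of the 3 livers of each group around their group mean for the 8 genes, as the log2 ratio of each liver's CPM to the mean CPM of its group; colours are the groups and shapes the replicates. Wild-type ZT8 replicate 1 lies far below its group for Irs2 (5.65 CPM against a mean of 13.5) and Sik1 (11.3 against 30.5), and wild-type ZT20 replicate 1 for Igfbp1 (12.9 against 29.9).

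The spread between livers divided the 8 genes. The biological coefficient of variation fitted by edgeR was 0.38 for Igfbp1, 0.35 for Sik1 and 0.35 for Irs2, which lay above at least 97.2% of the tested genes, against a median of 0.11. Irs1 followed with 0.18. Foxo1 (0.10), Insr (0.097), Pik3r1 (0.087) and Foxo3 (0.083) lay below the median. Of the 3 genes with the widest spread, Irs2 (CV 53.6%) and Sik1 (56.2%) differed most between the wild-type livers at ZT8. Igfbp1 differed most between the wild-type livers at ZT20 (61.3%). The lowest library of the 12 was wild-type ZT8 replicate 1 for each of the 3 genes. That library is also the 1 of its group with low Saa1, and had the largest deviation from its group mean over all genes (0.262 in log2 units, root mean square, against 0.121 to 0.220 in the others). Whether the acute phase state or the time of the last meal had a part in these levels was not tested.

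The counts of calls among the 8 were read against those among all tested genes. At ZT8, 1 of 8 passed between the genotypes, against 8.45% of all tested genes, and 1 of 8 was lower, against 4.04%. Insr and Foxo3, 2 of 8, did not overlap between the genotypes, against 25.6% of genes. At ZT20, 0 of 8 passed in edgeR, against 3.63% of genes, and 0 in DESeq2, against 4.37% of the genes that it gave an adjusted p. An unadjusted p under 0.05 was found for 2 (Insr and Foxo1), against 14.6%, and 1 (Insr) did not overlap, against 22.5%. For the difference between the genotype effects, 0 of 8 passed in edgeR, against 5.88% of genes, and 1 in DESeq2, against 6.99%, with 2 (Insr and Foxo3) at an unadjusted p under 0.05, against 19.6%. From ZT8 to ZT20 in wild-type, 2 of 8 passed, against 27.7%, both lower, against 13.9%, and 3 (Insr, Irs1 and Foxo3) did not overlap, against 42.3%. In Rev-erbα-/-, 1 of 8 passed, against 17.5%, and was lower, against 8.67%, and 3 (Insr, Pik3r1 and Foxo1) did not overlap, against 35.0%. With replicate 1 as the only wild-type liver at ZT8, 1 of 8 passed between the genotypes at ZT8 (Foxo3), against 2.29% of the 15077 genes tested in that setting, and 4 of 8 over time in wild-type (Insr and Foxo3 lower, Irs2 and Sik1 higher), against 11.9%. The median log2 difference of the 8 genes was -0.15 between the genotypes at ZT8 and -0.17 at ZT20, and that of all tested genes 0.0018 and -0.00068. Comparisons of the genotypes and of the times share groups, so their values are side by side and not independent.

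Promoter letters known from insulin-regulated genes were looked for in the 6 members that the RefSeq promoter table (GRCm38.p6) holds, Insr and Sik1 having no entry. The motifs were chosen after the promoters had been seen: the insulin response element letters CAAAACAA and CAAAATAA, the FOXO letters GTAAACA, the E-box CACGTG, the RORE half-sites TAGGTCA and TGGGTCA and the CRE TGACGTCA, each on both strands, in the stretch of at most 250 bases before the annotated start. The 3 genes with a match are shown because they hold insulin response element letters and are the receptor substrates and the classical FOXO target of this set. Irs1 (chr1:82291440-82291689, minus strand), Irs2 (chr8:11008930-11009179, minus strand) and Igfbp1 (chr11:7197537-7197781, plus strand) are printed 5′ to 3′ with the matched letters in capitals.
Irs1: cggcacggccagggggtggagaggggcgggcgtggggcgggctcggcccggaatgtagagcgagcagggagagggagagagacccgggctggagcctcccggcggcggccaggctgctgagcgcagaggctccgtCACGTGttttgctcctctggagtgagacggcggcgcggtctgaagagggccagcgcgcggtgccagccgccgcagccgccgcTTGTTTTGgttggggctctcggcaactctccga
Irs2: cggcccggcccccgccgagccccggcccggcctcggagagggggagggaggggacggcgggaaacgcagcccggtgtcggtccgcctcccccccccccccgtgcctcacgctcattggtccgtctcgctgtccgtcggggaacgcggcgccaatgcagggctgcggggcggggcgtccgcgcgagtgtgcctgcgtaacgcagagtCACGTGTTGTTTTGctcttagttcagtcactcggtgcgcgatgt
Igfbp1: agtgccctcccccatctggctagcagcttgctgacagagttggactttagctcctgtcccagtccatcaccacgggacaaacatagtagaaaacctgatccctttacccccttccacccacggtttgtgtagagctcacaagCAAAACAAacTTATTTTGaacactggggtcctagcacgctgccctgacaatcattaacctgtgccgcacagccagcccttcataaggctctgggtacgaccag
Distances were counted from the RefSeq start, which for these 3 genes is not the gene border given above. Irs1 held CACGTG from 115 to 110 bases before the start and TTGTTTTG, the reverse complement of CAAAACAA, from 33 to 26 bases before it. In Irs2 the same letters stood side by side, with CACGTG from 44 to 39 and TTGTTTTG from 38 to 31 bases before the start. Igfbp1 held CAAAACAA from 108 to 101 and TTATTTTG, the reverse complement of CAAAATAA, from 98 to 91 bases before the start. Its printed stretch of 245 bases was cut at the gene border and so ends short of the RefSeq start. Of 32851 windows in the table, 2.21% held CAAAACAA, 1.49% CAAAATAA, 3.17% GTAAACA, 6.02% CACGTG, 2.23% TAGGTCA, 3.24% TGGGTCA and 1.55% TGACGTCA. None of these letters was found in the windows of Foxo1, Foxo3 and Pik3r1, which says only that they are not in these windows. The matches are descriptions of sequence. No difference between the groups passed for these 3 genes in the main edgeR fit, and those that passed under alternatives are given above.

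The genes whose level was most like that of a member over the 12 libraries were found by Pearson's r of log2 CPM, with the 3 highest for each. For Insr they were 4933434E20Rik (0.961), Tmed8 (0.957) and Daglb (0.954), and for Foxo3 Spata2l (0.952), Maff and Slc35e2 (both 0.948). Foxo1 was most like Slc17a2 (0.952), Cramp1l (0.950) and Tnfrsf1b (0.947), and Irs1 like Gm16348 (0.943), Inhbc (0.926) and Gm5345 (0.916). Irs2 was followed by Erc1 (0.922), Ttc3 (0.907) and Cpn2 (0.900), and Pik3r1 by Bbox1 (0.897), Tesk2 (0.882) and Nrn1 (0.868). Igfbp1 was most like l7Rn6 (0.900), Dlc1 (0.878) and Ppm1k (0.860), and Sik1 like Zswim5 (0.902), Atg13 (0.899) and Lbp (0.896), the latter an acute phase protein. The 12 points share group, time and library, and the genes were picked as the highest of all those tested.

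Around the 8 genes, 8 lists of the pathway were described, which share some genes with each other and with the 8. Calls between the times were mostly more frequent than calls between the genotypes, as over all genes. Of all tested genes 13.8% were higher and 13.9% lower over time in wild-type, and 8.79% higher and 8.67% lower in Rev-erbα-/-. Between the genotypes at ZT8 the called share of a list was 9.09% (insulin receptor and adaptors) to 22.2% (CREB, CRTC and SIK branch), against 8.45% of all tested genes. At ZT20 it was 0% to 9.09% (IGF ligands and binding proteins), against 3.63%. The lists are short and were chosen with earlier results of these data known. Calls over all tested genes also moved when 1 library was left out. At ZT8 they were 1224 in all 12 libraries, 542 without wild-type ZT8 replicate 2 and 1811 without replicate 1. Among 11 tested genes of the insulin receptor and its adaptors, 1 was lower in Rev-erbα-/- at ZT8 and 0 differed at ZT20 (0 in DESeq2, 2 at an unadjusted p under 0.05). The count at ZT8 was 2 without Rev-erbα-/- ZT8 replicate 3. Over time in wild-type 3 of the 11 genes were lower, Insr and the receptor adaptor Sh2b1 among them, and 0 higher, and with replicate 1 as the only wild-type liver at ZT8 2 were lower and 1 higher. In Rev-erbα-/- 1 was higher (Shc1), a count that was 0 without Rev-erbα-/- ZT8 replicate 1 or Rev-erbα-/- ZT20 replicate 2.

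Of 30 tested genes of PI3K, AKT and their direct effectors, 3 were lower and 0 higher in Rev-erbα-/- at ZT8. They were Foxo3, Eif4ebp1 (-0.50 ± 0.09, adjusted p = 0.0036), which holds back cap-dependent translation until mTORC1 phosphorylates it, and its relative Eif4ebp2 (-0.30 ± 0.07, adjusted p = 0.018; edgeR). Eif4ebp2 did not pass without wild-type ZT8 replicate 2 (-0.30), Rev-erbα-/- ZT8 replicate 1 (-0.27) or Rev-erbα-/- ZT8 replicate 2 (-0.30). The count was 7 without wild-type ZT8 replicate 1, and 1 (Foxo3) with that library as the only wild-type liver at ZT8. At ZT20, 1 of the 30 was higher, which was Tbc1d4, the AKT substrate that governs glucose transporter traffic. It stood at 2.09, 1.95 and 2.86 CPM in wild-type and 5.41, 5.96 and 7.51 CPM in Rev-erbα-/- livers, without overlap (1.45 ± 0.21; edgeR, adjusted p = 0.00081). From ZT8 to ZT20 in wild-type 12 were lower (40.0% of the list, against 13.9% of all tested genes) and 0 higher, with a median over the list of -0.19 against -0.00021 for all tested genes. They included Foxo3, Eif4ebp1 (-0.76), Tbc1d4 (-1.17) and Akt1 (-0.68). The count was 7 without wild-type ZT20 replicate 2, and 5 with replicate 1 as the only wild-type liver at ZT8, where Akt1 was not called (-0.22, adjusted p = 0.17). In Rev-erbα-/- 4 were lower, among them Foxo1 and Deptor, an inhibitor of mTOR (-0.56, adjusted p = 0.0017), and 1 was higher. That count of 5 was 8 without wild-type ZT8 replicate 1, 3 without Rev-erbα-/- ZT8 replicate 2 and 2 without Rev-erbα-/- ZT20 replicate 1.

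The negative regulators of insulin signalling, 21 genes, gave 1 higher (Grb10) and 1 lower gene (Inpp5k) at ZT8 and 0 at ZT20 (0 in DESeq2, 2 at an unadjusted p under 0.05). Grb10, an adaptor that inhibits the receptor, stood at 10.4, 9.56 and 7.98 CPM in Rev-erbα-/- and 4.93, 6.13 and 5.24 CPM in wild-type livers at ZT8 (0.78 ± 0.18; edgeR, adjusted p = 0.013). It was not called without Rev-erbα-/- ZT8 replicate 1 (0.69) or replicate 2 (0.76), nor with replicate 1 as the only wild-type liver at ZT8 (0.91, adjusted p = 0.099). The count of 2 was 0 without Rev-erbα-/- ZT8 replicate 1, and 1 without wild-type ZT8 replicate 2 or 3 or Rev-erbα-/- ZT8 replicate 2 or 3. Over time in wild-type 6 were lower and 1 higher, a count of 7 (33.3%, against 27.7% of all tested genes) that was 4 without wild-type ZT8 replicate 2 or 3 or wild-type ZT20 replicate 2. It was 3 with replicate 1 as the only wild-type liver at ZT8, of which 1 was higher and 2 lower. Over time in Rev-erbα-/- 2 were lower and 1 higher, a count of 3 that was 5 without wild-type ZT8 replicate 1 or 3. Trib3, a pseudokinase that binds AKT, was lower at ZT20 in wild-type (-1.50) as in Rev-erbα-/- livers (-1.68), and so was Trib1 (-0.49 and -0.78; edgeR, adjusted p at most 0.0029).

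**Figure D4:**
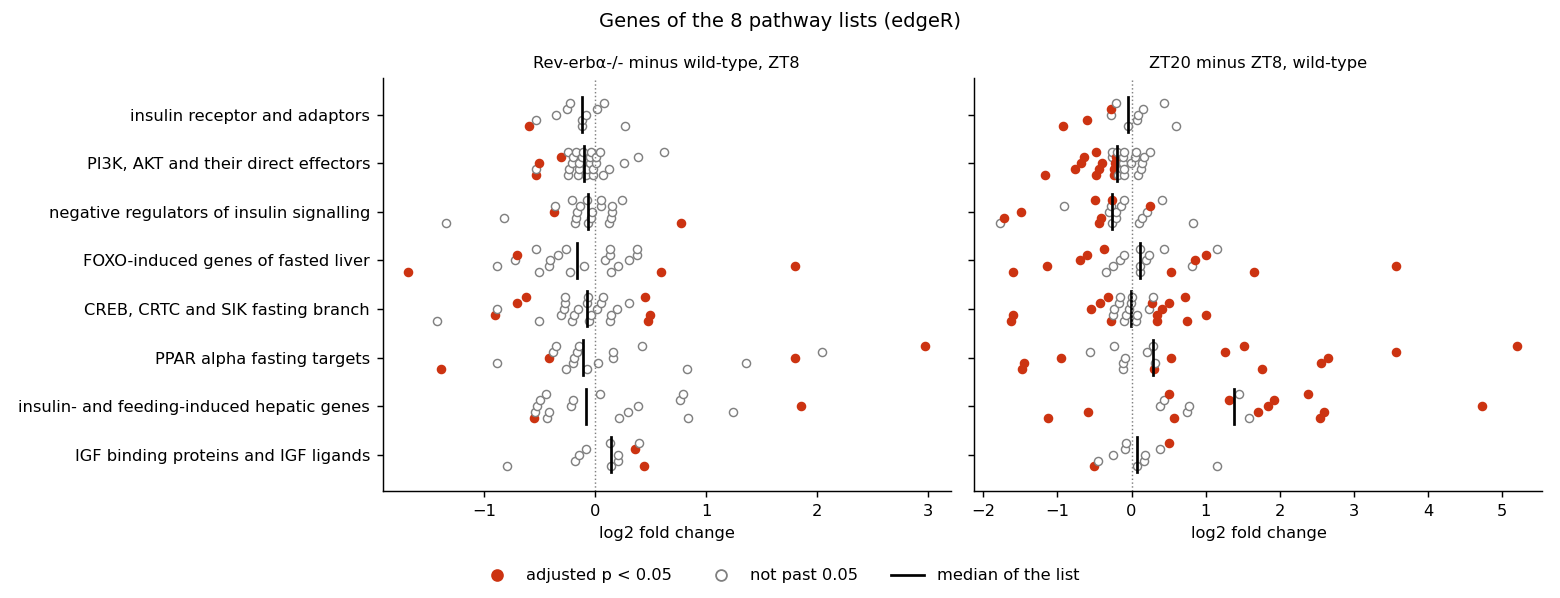
Log2 fold changes of the tested genes of 8 pathway lists, between the genotypes at ZT8 (left) and from ZT8 to ZT20 in wild-type (right); each point is 1 gene, filled if it passed an adjusted p of 0.05 in edgeR, and bars are list medians. Medians lie between -0.16 and 0.15 between the genotypes, and that of insulin- and feeding-induced genes stands at 1.39 over time.

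Of 22 FOXO-induced genes of the fasted liver, 2 were higher (Pdk4 and Cited2) and 2 lower (Ppargc1a and Bcl2l11) in Rev-erbα-/- at ZT8. Pdk4, the kinase that shuts off pyruvate dehydrogenase, stood at 6.91, 6.72 and 7.25 CPM in Rev-erbα-/- and 1.67, 1.84 and 2.54 CPM in wild-type livers (1.80 ± 0.24; edgeR, adjusted p = 0.00057), without overlap, and the difference was 2.05 with replicate 1 as the only wild-type liver at ZT8 (adjusted p = 0.018). Cited2, a transcriptional coregulator, gave 0.60 (edgeR, adjusted p = 0.040). The call was lost in 16 of 21 alternatives, with the replicate block among them (adjusted p = 0.054). They include the threshold of 0.01, which 0.040 cannot pass. With replicate 1 as the only wild-type liver at ZT8 the difference was 0.25. Ppargc1a, a coactivator of gluconeogenic genes, gave -0.71 ± 0.14 (adjusted p = 0.0053) and the pro-apoptotic gene Bcl2l11 -1.68 ± 0.29 (adjusted p = 0.0050). Bcl2l11 stood at 8.71, 15.6 and 23.7 CPM in wild-type livers at ZT8, and with replicate 1 as the only one of them the difference was -0.81 (adjusted p = 0.019). It was not called in a fit of the 6 livers at ZT8 alone (adjusted p = 0.073). The count was 8 without wild-type ZT8 replicate 1, and with that library as the only wild-type liver at ZT8 it was 4, of which 1 was higher and 3 lower, and Ppargc1a was not called (-0.54, adjusted p = 0.20). At ZT20, 0 of the 22 differed (0 in DESeq2, 4 at an unadjusted p under 0.05). From ZT8 to ZT20 in wild-type 5 were higher, with Pdk4 at 3.57 and Ccng2, which slows the cell cycle, at 1.65. As many were lower, with Pck1 at -1.60 and Bcl2l11 at -1.14. The call of Pck1 was lost in 10 of 21 alternatives and that of Bcl2l11 in 3. For both these include the threshold of 0.01, which their adjusted p could not pass. With replicate 1 as the only wild-type liver at ZT8, Pck1 gave -1.02 and Bcl2l11 -0.28. Each direction held 22.7% of the list, against 13.8% higher and 13.9% lower over all tested genes. In Rev-erbα-/- 5 were higher, with Pdk4 at 2.00 and Ccng2 at 0.85, and 1 was lower, a count of 6 that was 3 without Rev-erbα-/- ZT20 replicate 2.

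Of 27 genes of the CREB, CRTC and SIK branch, 3 were higher (Crtc3, Crem and Hdac5) and 3 lower (Pde4d, Ppargc1a and Hdac4) in Rev-erbα-/- at ZT8. CRTC3 and the class IIa histone deacetylases HDAC4 and HDAC5 are substrates that SIK kinases hold in the cytoplasm. The cAMP-responsive gene Crem gave 0.50 ± 0.10 (edgeR, adjusted p = 0.0082) and the cAMP phosphodiesterase Pde4d -0.90 ± 0.20 (adjusted p = 0.010), and both lost their call without wild-type ZT8 replicate 2 (0.46 and -0.80). The genotype effect on Hdac5 differed between the times by 0.68 ± 0.12 (adjusted p = 0.0039), a call that held without each library in turn. The count of 6 at ZT8 was 3 without wild-type ZT8 replicate 2, and 0 with replicate 1 as the only wild-type liver at ZT8. At ZT20, 0 differed in edgeR and 1 in DESeq2, with 2 at an unadjusted p under 0.05, and 2 differed without Rev-erbα-/- ZT8 replicate 3. Over time in wild-type 8 were higher and 6 lower, a count of 14 (51.9%, against 27.7% of all tested genes) that was 9 without wild-type ZT8 replicate 2, wild-type ZT8 replicate 3 or wild-type ZT20 replicate 2. It was 5 with replicate 1 as the only wild-type liver at ZT8, of which 4 were higher and 1 lower.

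The PPARα targets, 20 genes of fatty acid use in fasting, gave 2 higher (Fgf21 and Pdk4) and 2 lower genes (Cpt1a and Cidec) at ZT8, and 2 higher and 0 lower with replicate 1 as the only wild-type liver at ZT8. Cpt1a, which admits fatty acids to mitochondria, gave -0.42 (adjusted p = 0.038; edgeR). The call was lost in 10 of 21 alternatives, 7 of them with a single library left out. They include the threshold of 0.01, which 0.038 cannot pass. With replicate 1 as the only wild-type liver at ZT8 the difference was -0.24. Fgf21, a fasting hormone made by the liver, stood at 0.60, 0.60 and 0.31 CPM in wild-type and at 3.53, 4.17 and 4.31 CPM in Rev-erbα-/- livers at ZT8. At ZT20 the order was opposite, with 2.37, 1.64 and 1.16 CPM in wild-type and 0.21, 0.62 and 0.27 CPM in Rev-erbα-/- livers. Both differences passed (2.97 ± 0.35 and -2.19 ± 0.38; edgeR, adjusted p = 8.3e-05 and 0.0033), as did the difference between them (5.16 ± 0.51, adjusted p = 2.1e-05). The lowest of these levels, 0.21 CPM, lies close to 3 counts, which correspond to between 0.117 and 0.167 CPM. Cidec, a lipid droplet protein, gave -1.38 ± 0.29 at ZT8 (adjusted p = 0.0081), and was not called with replicate 1 as the only wild-type liver at ZT8 (-0.80, adjusted p = 0.34). Over time 9 were higher and 3 lower in wild-type (60% of the list, against 27.7% of all tested genes). In Rev-erbα-/- 7 were higher and 4 lower (55%, against 17.5%). The count in wild-type was 6 with replicate 1 as the only wild-type liver at ZT8, and that in Rev-erbα-/- was 7 without Rev-erbα-/- ZT8 replicate 2 or Rev-erbα-/- ZT20 replicate 1.

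Of the 18 tested insulin- and feeding-induced genes, 12 were called over time in wild-type and 9 in Rev-erbα-/- livers. From ZT8 to ZT20 in wild-type 10 were higher and 2 lower, with a median of 1.39, and in the knockout 8 were higher and 1 lower, with a median of 0.88, where 13.8% and 8.79% of all tested genes were higher. Acacb, which makes malonyl-CoA at mitochondria, rose by 2.59 in wild-type and 1.83 in Rev-erbα-/-, as Pnpla3, a lipid droplet protein, did by 4.72 and 3.35 (log2; edgeR, adjusted p at most 0.0099). With replicate 1 as the only wild-type liver at ZT8, 6 were higher and 2 lower in wild-type, and the count of 9 in Rev-erbα-/- was 5 without Rev-erbα-/- ZT8 replicate 1 or 2. Between the genotypes at ZT8, Ppp1r3b, which targets a phosphatase to glycogen synthase, was higher and Gys2, liver glycogen synthase itself, lower. Ppp1r3b stood at 759, 743 and 827 CPM in Rev-erbα-/- and 347, 198 and 99 CPM in wild-type livers (1.86 ± 0.35; edgeR, adjusted p = 0.013), a call that was lost without wild-type ZT8 replicate 2 (1.80), and the difference was 1.16 with replicate 1 as the only wild-type liver at ZT8 (adjusted p = 0.00019). Gys2 gave -0.55 ± 0.13 (adjusted p = 0.016), lost without wild-type ZT8 replicate 2 (-0.55) or 3 (-0.51), without Rev-erbα-/- ZT8 replicate 2 (-0.53) and with replicate 1 as the only wild-type liver at ZT8 (-0.49). The count of 2 was 5 without wild-type ZT8 replicate 1, 4 without Rev-erbα-/- ZT20 replicate 1 and 0 without wild-type ZT8 replicate 2. At ZT20, the carbohydrate-response factor Mlxipl stood at 368, 405 and 387 CPM in Rev-erbα-/- and 515, 514 and 532 CPM in wild-type livers, without overlap (-0.43 ± 0.08; edgeR, adjusted p = 0.0055), and passed without each library in turn.

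Among 11 IGF ligands and binding proteins, Igf1 (0.44 ± 0.10, adjusted p = 0.011) and Igfals (0.36 ± 0.09, adjusted p = 0.027), which carries IGF1 in a ternary complex, were higher in Rev-erbα-/- at ZT8 (edgeR). The call of Igf1 was lost without wild-type ZT8 replicate 2 (0.44), and that of Igfals without wild-type ZT8 replicate 1 (0.27) or 3 (0.39) and without Rev-erbα-/- ZT8 replicate 2 (0.37) or 3 (0.31). With replicate 1 as the only wild-type liver at ZT8, Igf1 was not called (0.49, adjusted p = 0.084). At ZT20, Igfbp5 was higher by 0.77 (edgeR, adjusted p = 0.025), a call lost without wild-type ZT20 replicate 1 (0.64) or 3 (0.77) and without Rev-erbα-/- ZT20 replicate 2 (0.80) or 3 (0.64). Igfbp4 was lower at ZT20 in both genotypes (-0.51 and -0.41; edgeR, adjusted p = 0.00092 and 0.0070), and was not called in wild-type with replicate 1 as the only wild-type liver at ZT8 (-0.35, adjusted p = 0.057).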

How the data were processed

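Poly(A) RNA from 12 mouse livers was sequenced as 75 bp reads. The authors used TopHat for alignment to mm10, and HTSeq then assigned reads with a unique position to gene symbols (union mode, minimum alignment quality 10, without regard to strand), and SAMtools and DESeq2 1.6.3 are named in the submitters' processing notes. Versions of the first 3 tools are not given in the sources used here. The deposited values are raw counts, and 5 summary lines that name no gene were left out of library sizes. The gene counts per library ranged from 17641809 to 26060192, and floors and intervals from single libraries cover counting error only.

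From these counts, edgeR 4.0.16 (R 4.3.3; TMM scaling, filterByExpr, robust quasi-likelihood fit of 4 group means over all 12 samples) gave 5 comparisons, with p-values adjusted by Benjamini-Hochberg over 14488 genes at a threshold of 0.05. Replicates are separate livers, 3 per group. CPM uses TMM library sizes, and RPKM divides by exon bases in GENCODE M21 that no other counted gene shares. Alternatives were DESeq2 1.42.0, RLE and upper-quartile scaling, no filter, at least 10 counts in every sample, the 6 samples compared alone, a replicate block, a threshold of 0.01 and leaving out each library. The code was tested on simulated data.

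The 8 genes and the lists were chosen with earlier results of these data known. Values are given for the members, for up to 4 called genes per list and comparison with the largest change and no overlap, and for the 3 genes most like each member (log2 of CPM + 0.5). Other called genes are only named, after their values were seen, except that the difference of effects is given for Crtc3. The values of 1 listed gene are not reported here, and it stays in the counts of its list.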

Additional observations from a re-analysis of the deposited data

Results flagged for a closer look

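Insr drew attention because its genotypes separated in opposite directions at the 2 times without overlap, with the difference between the genotype effects (ZT8 minus ZT20) at -0.433 on the log2 scale. That difference did not pass in edgeR (adjusted p = 0.0714), and neither did the genotype difference at ZT8 or ZT20 (adjusted p = 0.165 and 0.311). The gaps were narrow. At ZT8 the highest Rev-erbα-/- liver stood at 213.7 CPM and the lowest wild-type liver at 216.5 CPM. At ZT20 the highest wild-type liver stood at 172.5 CPM and the lowest Rev-erbα-/- liver at 172.7 CPM. Of all tested genes, 25.6% at ZT8 and 22.5% at ZT20 did not overlap between the genotypes.

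Among the pathway genes reported here, 12 had a genotype effect that differed between ZT8 and ZT20 by the interaction test in edgeR (adjusted p under the threshold of 0.05). The called share of a list was 0% (negative regulators) to 18.5% (CREB, CRTC and SIK branch), against 5.88% of all tested genes. The difference, ZT8 minus ZT20 on the log2 scale, was positive for Fgf21 (5.16), Pdk4 (1.57), Hdac5 (0.676), Crem (0.616), Mlxipl (0.47) and Crtc3 (0.425). It was negative for Tbc1d4 (-1.69), Bcl2l11 (-1.56), Pde4d (-1.2), Igfbp5 (-0.908), Hdac4 (-0.72) and Eif4ebp1 (-0.518). The call of Crtc3 was not followed through the alternatives. The calls of Fgf21, Pdk4, Hdac5 and Tbc1d4 held without each library in turn and with replicate 1 as the only wild-type liver at ZT8. In that last setting the calls of Pde4d (-0.70, adjusted p = 0.20), Bcl2l11 (-0.70, adjusted p = 0.098), Hdac4 (-0.36, adjusted p = 0.43), Eif4ebp1 (-0.44, adjusted p = 0.205), Crem (0.67, adjusted p = 0.058) and Mlxipl (0.43, adjusted p = 0.12) were lost (edgeR), while Pde4d passed without each library in turn.

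Bcl2l11 also lost its call without wild-type ZT8 replicate 2 (-1.58) and without each of the 9 libraries of the other groups (-1.64 to -1.48). Hdac4 lost it without wild-type ZT8 replicate 2 (-0.62) or 3 (-0.65) and without 7 libraries of the other groups (-0.74 to -0.64). Igfbp5 lost it without 8 of the 12 libraries (-0.96 to -0.72), and Eif4ebp1 without 8 (-0.52 to -0.42). Crem lost it without wild-type ZT8 replicate 2 (0.58), Rev-erbα-/- ZT8 replicate 2 (0.61) or Rev-erbα-/- ZT20 replicate 2 (0.60), and Mlxipl without wild-type ZT8 replicate 2 (0.48), Rev-erbα-/- ZT8 replicate 1 (0.41) or wild-type ZT20 replicate 2 (0.48).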

How the results depend on the processing

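Over the 8 genes and 5 comparisons, 319 values under alternatives other than leaving out 1 library kept their direction and side of the threshold, 7 passed newly, 10 changed sign, of which Sik1 over time in wild-type also passed newly with replicate 1 as the only wild-type liver at ZT8, and 0 lost a call. With 1 library left out the numbers were 460, 10, 10 and 0. Of the pathway genes named, 110 of their values under the former and 175 under the latter lost a call and 0 changed sign. The former include the threshold of 0.01 on the main fit, where any adjusted p above 0.01 fails by definition. No scaling moved the median of all genes by 0.1 on the log2 scale.

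For the difference between the genotype effects, 1 of the 8 genes passed with DESeq2, 1 with upper-quartile scaling and 1 without a filter, against 0. With replicate 1 as the only wild-type liver at ZT8, chosen after seeing the data, 4 passed over time in wild-type, against 2. Leaving out 1 library gave 1 to 2 at ZT8 (2 without wild-type ZT8 replicate 1) and 0 to 2 for the difference of effects (2 without wild-type ZT20 replicate 3).

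The pathway lists held 22 called genes at ZT8, against 14 with 6 samples, 11 at 0.01, 10 with replicate 1 as the only wild-type liver at ZT8, and 12 to 36 without 1 library (12 without wild-type ZT8 replicate 2, 36 without replicate 1). At ZT20 they held 4, against 8 with DESeq2, 8 with 6 samples, and 3 to 7 without 1 library (7 without Rev-erbα-/- ZT8 replicate 3). The difference of effects gave 13, against 23 with DESeq2, 5 at 0.01, and 7 to 23 without 1 library (7 without wild-type ZT8 replicate 2, 23 without replicate 1). Time in wild-type gave 68, against 44 at 0.01 and 36 with replicate 1 as the only wild-type liver at ZT8. Time in Rev-erbα-/- gave 44, against 22 at 0.01 and 27 to 51 without 1 library (27 without Rev-erbα-/- ZT8 replicate 2). Calls over all tested genes moved as well. At ZT8 they were 1224, against 542 without wild-type ZT8 replicate 2 and 1811 without replicate 1. For the difference of effects they were 852, against 509 and 1260 in the same settings. At ZT20 they were 526, against 569 without Rev-erbα-/- ZT8 replicate 3. Over time in Rev-erbα-/- they were 2530, against 1663 without Rev-erbα-/- ZT8 replicate 2. The causes of these changes were not tested.

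Signs changed for Pik3r1 at ZT8 with upper-quartile scaling (-0.0025). With replicate 1 as the only wild-type liver at ZT8 they changed at ZT8 for Irs2 (0.70), Pik3r1 (-0.067), Foxo1 (0.028) and Sik1 (1.14), in the difference of effects for Irs2 (1.01), Pik3r1 (-0.027) and Sik1 (0.97), and over time in wild-type for Sik1 (1.38). Without 1 library the ranges that crossed 0 were -0.059 to 0.049 (Pik3r1, ZT8), -0.69 to 0.092 (Sik1, ZT8), -0.11 to 0.010 (Pik3r1, ZT20), -0.61 to 0.17 (Irs2, difference of effects), -0.020 to 0.12 (Pik3r1, difference of effects), -0.45 to 0.33 (Sik1, time in wild-type) and -0.020 to 0.37 (Irs1, time in Rev-erbα-/-).

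No pairing by replicate number was seen: deviations of 18 same-numbered pairs correlated at -0.0954 to 0.102, and 3 of 12 samples were closest to their own number. This cannot exclude a shared litter, day or batch, which the labels do not record. With the replicate block Sik1 over time in wild-type was 0.066, Foxo1 over time in wild-type passed (adjusted p = 0.0295), and calls over all genes at ZT8 were 1210 against 1224.

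With 3 livers per group, intervals of Irs2, Igfbp1 and Sik1 between pairs of groups span about 1 log2 unit to either side, so smaller differences may have been missed. For Igfbp1 over time in wild-type the difference was 1.15, with an interval from 0.077 to 2.23. It did not pass after adjustment (edgeR, adjusted p = 0.107). RNA levels say nothing of phosphorylation or of where FOXO proteins were. Time of the last meal is not recorded.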
